A study of Mus musculus with 9 samples.

Results

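Transcripts of the machinery that takes a new secretory protein into the endoplasmic reticulum (ER), folds it and sends it on were measured in the lateral nasal gland of the mouse. The members were every probe set with a single platform symbol beginning with Pdia, Sec61, Sec62, Sec63, Ssr, Spcs or Tmed, with Srp before a digit, or with Dnajb9 or Dnajb11, and those of Xbp1, Hspa5, Hsp90b1, Calr, Canx, Hyou1, Agr2, Herpud1, Creld2, Sdf2l1, Manf, Ero1l, Edem1, Dnajc3, Sel1l, Derl1, Derl3 and the 3 KDEL receptors. This gave 109 probe sets of 51 symbols, out of 22626 probe sets that were not controls. Of these, 106 matched by platform symbol, and 3 probe sets of Ero1a were matched because RefSeq lists Ero1l as its synonym. There were 21 symbols with 1 probe set and 30 with several.

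A protein with a signal peptide is caught on the ribosome by the signal recognition particle, passed through the Sec61 channel and trimmed by signal peptidase. Inside the ER it is folded by Hsp70, Hsp90 and lectin chaperones while protein disulfide isomerases set its disulfide bonds, and what fails is drawn back to the cytosol and degraded. When unfolded protein accumulates, Xbp1 and Atf6 raise transcription of many of these genes, a programme called the unfolded protein response, on which cells with a heavy secretory load depend.

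The lateral nasal gland is a large seromucous gland in the wall of the nose that pours odorant-binding and other secretory proteins onto the nasal mucosa. Cyp2g1 encodes a cytochrome P450 of the olfactory mucosa and nasal glands. The arrays held 3 pools of glands from Cyp2g1-null mice on a mixed 129/Sv and C57BL/6 background, 4 pools from wild-type B6 (C57BL/6) mice and 2 pools from wild-type 129/Sv mice, and each pool combined 10 male mice aged 2 to 3 months. Both strains are controls because of that mixed background, so the null line differs from each strain in more than the Cyp2g1 allele.

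On all 9 arrays the signal of Obp1a, an odorant-binding protein of this gland, was high (112206.1 on the lowest array). Cyp2g1 signals (probe set 1449565_at) were 55.7, 141 and 201 in null pools, against 5917, 748, 2007 and 2799 in B6 and 208 and 981 in 129/Sv pools, so the first 129/Sv pool nearly matched the highest null pool. Summed signals of 15 probe sets of olfactory neuron markers ran from 3024 to 9142 in null, 3326 to 14255 in B6 and 2695 to 3961 in 129/Sv pools. The B6 pool 1 had the highest of these sums. Signals of 12 probe sets of ciliated cell markers summed to 29979 to 32666 in null, 21732 to 25502 in B6 and 24308 to 25082 in 129/Sv pools, and 12 of stroma and endothelium to 71667 to 87108 in null, 86347 to 109246 in B6 and 71981 to 76632 in 129/Sv pools. Gland secretory markers (14 probe sets) summed to 787657 to 961854 in null, 619287 to 782883 in B6 and 675480 to 688898 in 129/Sv pools, and 9 of macrophages and neutrophils to 36924 to 43272 in null, 30322 to 33832 in B6 and 35936 to 42240 in 129/Sv pools. The sums of ciliated, secretory and macrophage markers were thus higher in every null pool than in every B6 pool. Bright probe sets weigh most in such sums. In the secretory list, Car6 (1421001_a_at) had 29312.4 to 70057.5 in null and 387.5 to 8017.5 in B6 pools. Over the 13 tested secretory probe sets 7 were higher in null, with a median log2 fold change of 0.3. Over the 7 tested macrophage and neutrophil probe sets 3 were higher in null and the median log2 fold change was -0.27. Plasma and B cell sums (30 probe sets) were 164828 to 225762 in null, 104816 to 200533 in B6 and 158615 to 246855 in 129/Sv. Of the 15 tested probe sets of that list, 14 were higher in null than in B6 (median log2 fold change 0.41, 1 called). Goblet and mucous cell sums (10 probe sets) were 7250 to 8899 in null, 7592 to 8606 in B6 and 6035 to 6112 in 129/Sv. In pooled tissue, fewer cells of a type and less RNA per cell cannot be told apart. The part of all these markers in the results below was not tested.

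Sequence upstream of the members is described first. It groups them without using signals, though the members themselves were chosen with earlier results of these data known. The ER stress response element, to which Atf6 binds together with the factor NF-Y, was searched on both strands as CCAAT, any 9 bases, then CCACG, in windows from 250 bases before to 50 after each RefSeq transcription start (build GRCm38.p6). Of the 51 symbols, 40 had a window. The element stood in 8 of them (20%), namely Hspa5, Calr, Derl3, Hsp90b1, Canx, Pdia6, Dnajc3 and Creld2, against 37 of 27025 genes in all (0.137%). The short form ATTGG, 1 base, CCACG stood in Herpud1 and Dnajb11, 2 of 40 (5%) against 0.0444% of all genes. The unfolded protein response element TGACGTGG, to which Xbp1 binds, stood in Kdelr3 alone (2.5%, against 0.714% of all genes). It holds a CCACG on its other strand, as both ER stress elements do on their own, and CCACG by itself was in 77.5% of the members' windows and 35.5% of all. CCAAT alone was in 62.5% and 41.1%. Many members are genes that Atf6 and Xbp1 raise, so shares above those of all genes could be foreseen from the choice of members. They carry no test. A match of letters is a description and not a binding site.

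The stretches below are shown because these genes turn up again among the pools that differ, with 15 bases on each side of the element and its ends in capitals. They are a selection, since Canx, Derl3 and Dnajb11 hold an ER stress response element, turn up there as well and are not printed. The printed stretches read 5′ to 3′ along the gene, so an element on the other strand appears as CGTGG, 9 bases, ATTGG. The Hspa5 stretch lies at chr2:34772010-34772058 on the plus strand, Creld2 at chr15:88819505-88819553 plus, Pdia6 at chr12:17266476-17266524 plus, Dnajc3 at chr14:118937812-118937860 plus, Herpud1 at chr8:94386362-94386402 plus, Calr at chr8:84847060-84847108 minus and Hsp90b1, which holds 2 elements, at chr10:86705518-86705671 minus.
Hspa5: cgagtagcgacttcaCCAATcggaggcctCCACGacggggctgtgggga
Creld2: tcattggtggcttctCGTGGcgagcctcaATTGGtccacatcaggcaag
Pdia6: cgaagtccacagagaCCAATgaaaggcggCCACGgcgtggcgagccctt
Dnajc3: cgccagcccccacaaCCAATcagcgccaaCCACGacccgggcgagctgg
Herpud1: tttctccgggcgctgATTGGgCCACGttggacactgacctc
Calr: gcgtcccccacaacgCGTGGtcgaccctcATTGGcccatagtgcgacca
Hsp90b1: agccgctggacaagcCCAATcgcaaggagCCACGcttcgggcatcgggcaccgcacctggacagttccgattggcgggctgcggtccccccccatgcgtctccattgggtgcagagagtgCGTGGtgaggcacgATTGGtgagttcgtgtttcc
Between the fixed ends, the 9 inner bases differ from gene to gene. In Hspa5, Canx, Pdia6 and Dnajc3 the element reads CCAAT first along the gene, in Calr, Derl3 and Creld2 it is turned round, and Hsp90b1 holds a copy in each direction. The long elements began between positions -212 and -65 relative to the transcription start.

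Most of the ER machinery stood at similar levels in the 3 groups. A probe set was tested when at least 2 arrays gave it a signal above their own median, and this kept 100 members of 48 symbols. Comparisons were fitted on log2(signal + 16) over all 12575 probe sets that passed, and called at an adjusted p of at most 0.05. The 9 untested members were the only probe sets of Tmed6, Tmed8 and Tmed11 and 1 probe set each of Tmed7, Tmed4, Spcs1, Sec62, Pdia4 and Pdia6, and the other probe sets of these last 6 genes were tested. Between Cyp2g1-null and B6 pools, 2 members were higher in null (2%, against 1.11% of all probe sets tested) and 2 lower (2%, against 1.07%). At an unadjusted p under 0.05 there were 18 members in either direction, against 14.4% of all probe sets. Between null and 129/Sv pools no member was called higher (1.41% of all probe sets) or lower (0.628%) by limma, and 10 passed unadjusted (12% of all). Against the mean of both strains 0 were higher (0.755% of all) and 2 lower (0.469%), with 11 passing unadjusted (11.9%). No member was called against each strain in the same direction (0.0954% of all), and 2 passed that way unadjusted (2.51%). Between the strains, 5 members were higher in B6 (2.92% of all) and 4 lower (2.27%), with 23 unadjusted (17.4%). With at most 2 members called in either direction, the shares in the null comparisons lay close to the background. These comparisons share arrays.

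Median log2 fold changes over the 100 members were -0.06 for null minus B6, -0.04 for null minus 129/Sv, -0.03 for null minus the mean of the strains and 0.04 for B6 minus 129/Sv. Over all probe sets tested they were 0.02, 0, 0.01 and -0.01. The direction of these medians was not stable to single arrays. Without B6 pool 2 they were 0.006 for null minus B6, 0.007 for null minus the mean and -0.01 for B6 minus 129/Sv, without 129/Sv pool 1 the last was -0.018, and without 129/Sv pool 2 null minus 129/Sv was 0.045. The 95% interval of the fold change lay within 2-fold for 94, 98, 98 and 91 members in these 4 comparisons, against 89.7%, 83.7%, 92.1% and 83.3% of all probe sets. A change within a factor of 2 could thus be bounded for nearly all members at this number of arrays. Within 1.5-fold, 76, 72, 85 and 66 members were bounded.

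**Figure D1:**
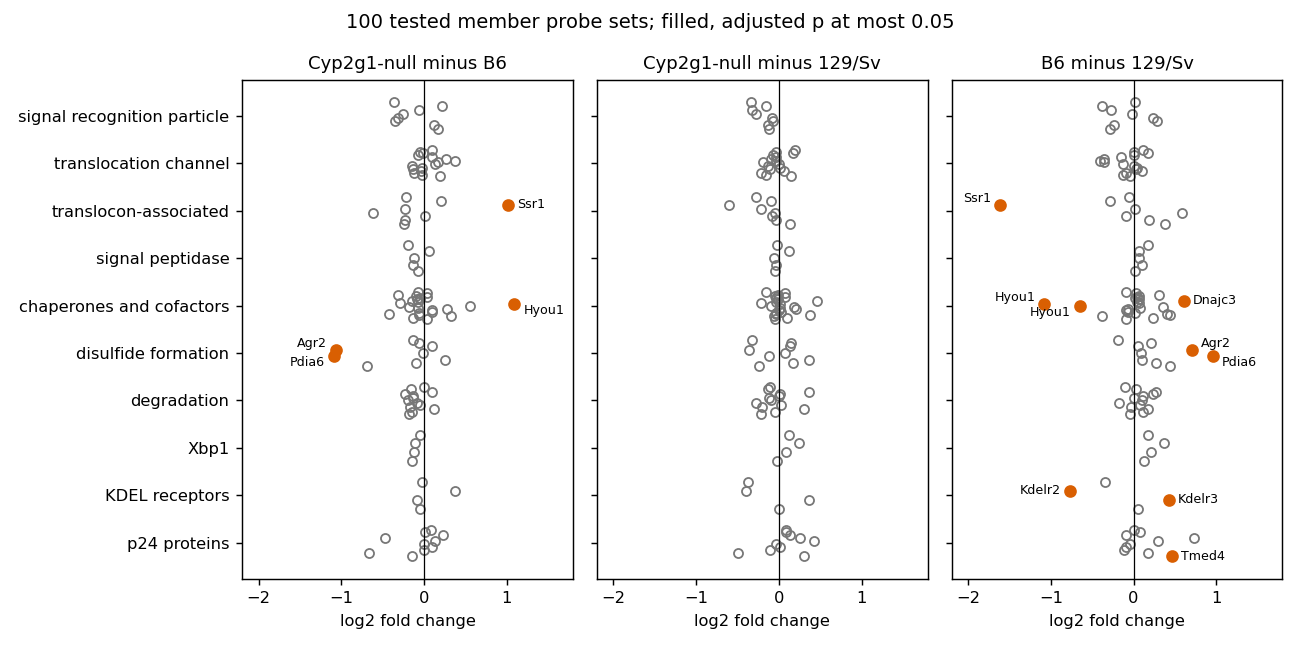
Log2 fold changes of the 100 tested member probe sets by role (rows), for Cyp2g1-null minus B6, Cyp2g1-null minus 129/Sv and B6 minus 129/Sv (panels). Each circle is a probe set, and filled circles with a symbol have an adjusted p of at most 0.05. There are 4 filled circles against B6, 0 against 129/Sv and 9 between the strains.

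Agr2, Pdia6, Hyou1 and Ssr1 were the members that differed between null and B6 pools. Agr2, a disulfide isomerase of mucus-secreting epithelia, had signals of 2439, 2926 and 2303 in null pools, against 4279.7, 5894, 5623 and 5809 in B6 pools and 2589.6 and 4150.0 in 129/Sv pools (probe set 1419268_at). All null pools were below all B6 pools and overlapped with 129/Sv. Agr2 was lower in null than in B6 (log2 fold change -1.07, SE 0.16, adjusted p = 0.00254) and lower than the mean of both strains (log2 fold change -0.72, SE 0.15, adjusted p = 0.0386), and against 129/Sv alone the log2 fold change was -0.36 (adjusted p = 0.508). B6 was itself higher than 129/Sv (log2 fold change 0.71, SE 0.18, adjusted p = 0.0392), but without 129/Sv pool 1 this strain difference was 0.37 (adjusted p = 0.459). It also missed the threshold without B6 pool 2, 3 or 4 or null pool 1 or 3 (adjusted p 0.0525 to 0.0894), and with no filter, equal array medians, a fit of only the groups compared or eBayes without trend (0.054 to 0.118). Its other probe set, 1455802_x_at, had 701, 567 and 594 in null, 1116, 823, 1096 and 1015 in B6 and 531 and 1015 in 129/Sv pools, with a log2 fold change of -0.69 against B6 that was not called (adjusted p = 0.14).

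Pdia6, a protein disulfide isomerase of the ER lumen that also acts on the stress sensor Ire1, showed the same order of groups. Its tested probe set 1423648_at had 4785, 6395 and 6837 in null pools, against 10044, 14081, 13201 and 13569 in B6 and 5837 and 7149.5 in 129/Sv pools. Null and 129/Sv pools interleaved, and every B6 pool stood above both. It was lower in null than in B6 (log2 fold change -1.09, SE 0.14, adjusted p = 0.000855) and than the mean of the strains (log2 fold change -0.60, SE 0.14, adjusted p = 0.0464), while against 129/Sv the log2 fold change was -0.12 (adjusted p = 0.864). B6 was higher than 129/Sv (log2 fold change 0.96, SE 0.16, adjusted p = 0.00247; 0.0563 without 129/Sv pool 1). The second probe set, 1430983_at, was too dim to be tested and had 113, 239 and 188 in null, 471, 405, 372 and 290.0 in B6 and 216 and 358 in 129/Sv pools, again with no overlap of null and B6. With 1 array left out, Pdia6 passed against the mean of both strains only without B6 pool 1, and Agr2 only without B6 pool 1 or 129/Sv pool 1. In the other leave-outs the adjusted p reached 0.252 for Pdia6 and 0.182 for Agr2. Both also missed it with no filter (0.067 for Pdia6 and 0.0542 for Agr2) and eBayes without trend (0.177 and 0.149), and Pdia6 with quantile normalization (0.0554).

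Hyou1, a large Hsp70-like chaperone that serves Hspa5 as nucleotide exchange factor, went the other way. Probe set 1423290_at had 2549.6, 1927 and 1616 in null pools, against 711, 1164, 828 and 1084 in B6 and 1821 and 2150.1 in 129/Sv pools, and was higher in null than in B6 (log2 fold change 1.09, SE 0.19, adjusted p = 0.007). Null and 129/Sv pools overlapped (log2 fold change 0.01, adjusted p = 0.995), and B6 pools were below every other pool. Without null pool 1 the adjusted p against B6 was 0.0509. Its brighter probe set 1423291_s_at had 6119, 6319.9 and 5335 in null, 3248, 4072, 5001 and 3992 in B6 and 5743 and 6999 in 129/Sv pools, also without overlap of null and B6 (log2 fold change 0.55, adjusted p = 0.0521). The third probe set, 1451913_a_at, overlapped between all groups, with 555 to 955 in Cyp2g1-null, 445 to 923 in B6 and 722 to 922 in 129/Sv pools. B6 was lower than 129/Sv in the first (log2 fold change -1.08, SE 0.22, adjusted p = 0.00898) and the second (log2 fold change -0.65, SE 0.15, adjusted p = 0.0228). Without 129/Sv pool 2 neither strain difference was called (adjusted p = 0.124 and 0.273), and the second was also lost without 129/Sv pool 1 (0.0523), in a fit of only the groups compared (0.0517) and with eBayes without trend (0.0852).

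Ssr1 encodes the alpha subunit of the translocon-associated protein complex, which sits beside the Sec61 channel. Probe set 1417764_at had 4085, 3918 and 4303 in null pools, against 1595, 2589.6, 1937 and 2099 in B6 and 5502 and 7016 in 129/Sv pools, and the 3 groups did not overlap at all. It was higher in null than in B6 (log2 fold change 1.01, SE 0.15, adjusted p = 0.00202), and B6 was lower than 129/Sv (log2 fold change -1.61, SE 0.17, adjusted p = 3.57e-05). Null pools stood between the strains (against 129/Sv, log2 fold change -0.60, adjusted p = 0.126). The gene's other probe sets did not share this pattern. Probe set 1417763_at had 7399.5, 5546 and 6022 in null, 3992, 6684, 5238 and 6381 in B6 and 5911 and 7548 in 129/Sv pools (null minus B6 0.20, adjusted p = 0.626). For 1448843_at the log2 fold change was -0.23 (adjusted p = 0.677) with ranges of 1041 to 1294 in Cyp2g1-null, 884 to 1803 in B6 and 1035 to 1364 in 129/Sv pools. Which transcripts each of the 3 probe sets reads was not examined.

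**Figure D2:**
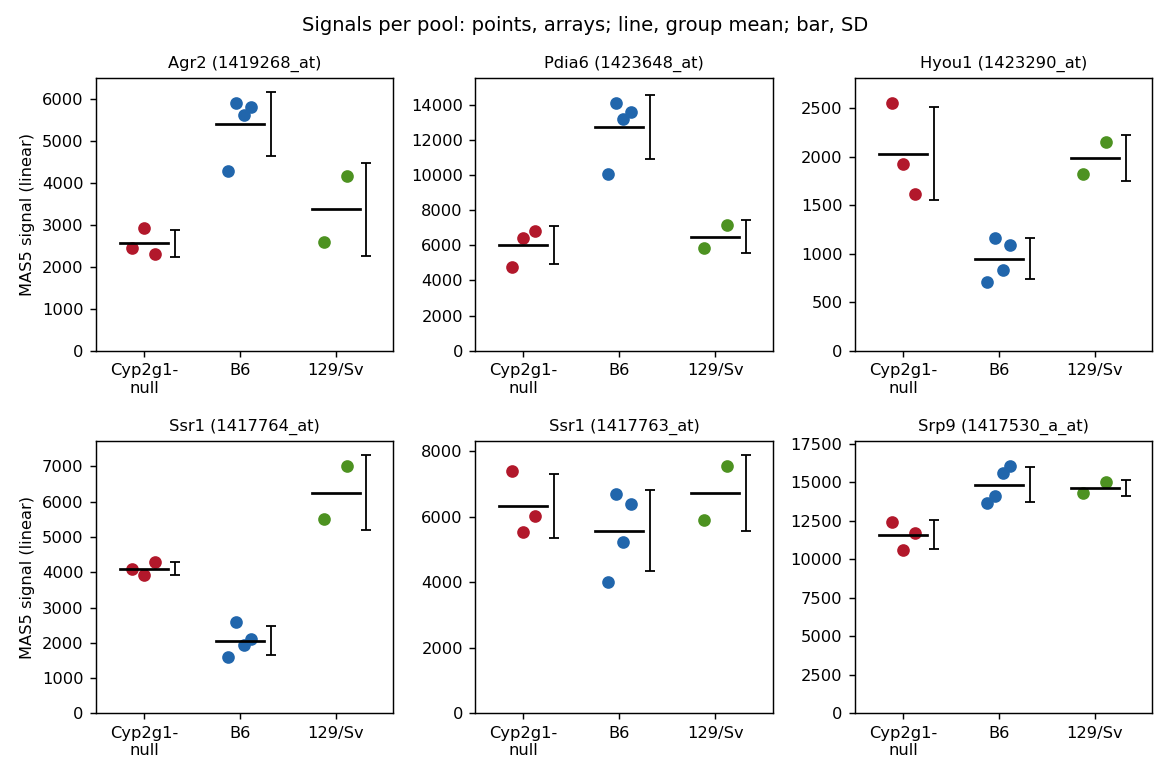
MAS5 signals (linear axis from 0) of 6 probe sets in 3 Cyp2g1-null, 4 B6 and 2 129/Sv pools. Points are arrays, lines are group means and bars are SD. In Agr2 and Pdia6 the B6 pools stand above the others, in Hyou1 and Ssr1 1417764_at below them, Ssr1 1417763_at overlaps throughout, and in Srp9 the 3 null pools are the lowest.

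The entry route gave no calls apart from Ssr1. The signal recognition particle was measured through Srp9 and Srp14, the pair that stalls elongation on the ribosome, Srp19, an assembly factor for the particle's RNA, and Srp68, a scaffold subunit. None of the 8 probe sets was called in any comparison. Srp9 1417530_a_at had 12436, 10586 and 11725 in null pools, against 13633, 14121, 15566 and 16056 in B6 and 14274 and 15014 in 129/Sv pools. All 3 null pools were below every pool of both strains, and neither difference was called. Against B6 it was -0.36 on the log2 scale (adjusted p = 0.055), and against 129/Sv -0.34 (adjusted p = 0.153). Null pools were also the lowest in Sec62 1433704_s_at and Xbp1 1437223_s_at. The share of all probe sets with such an order was not counted. It was 1 of the 2 members that passed unadjusted against each strain in the same direction. The second Srp9 probe set, 1448753_at, had 5252 to 5610.4 in Cyp2g1-null, 6011 to 7166 in B6 and 5569 to 5926 in 129/Sv pools, so that null pools were below B6 but reached into the 129/Sv range.

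The 4 Srp14 probe sets had log2 fold changes of -0.06 to 0.22 for null minus B6, and the 4 differences of B6 minus 129/Sv were between -0.38 and -0.24. The brightest, 1455939_x_at, had 7796 to 9311 in Cyp2g1-null, 7114 to 8375 in B6 and 9186 to 9518 in 129/Sv pools. Srp68 had 6164 ± 1055 in Cyp2g1-null, 7399 ± 1180.0 in B6 and 7453 ± 531 in 129/Sv pools, with overlapping groups; here and below, ± gives the SD of 3, 4 and 2 pools. Srp19 averaged 8326 ± 483 in Cyp2g1-null, 10699 ± 1822 in B6 and 8735 ± 282 in 129/Sv pools, and its difference from B6 was -0.35 (adjusted p = 0.194).

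The translocation channel comprises Sec61a1, Sec61a2 and Sec61b, subunits of the pore, and Sec62 and Sec63, which help proteins enter after translation. None of 16 tested probe sets was called, and their log2 fold changes ran from -0.14 to 0.37 for null minus B6 and from -0.21 to 0.2 for null minus 129/Sv. Sec61a1 1448242_at averaged 17581 ± 2507 in Cyp2g1-null, 19704 ± 5085 in B6 and 18801 ± 172 in 129/Sv pools, and the gene's 6 probe sets lay between -0.13 and 0.19 against B6. Sec61b had 22363 ± 2192 in Cyp2g1-null, 23661 ± 3840.0 in B6 and 23415 ± 411 in 129/Sv pools. Sec61a2, the second form of the alpha subunit, had 582 to 872 in Cyp2g1-null, 634 to 909 in B6 and 667 to 693 in 129/Sv pools for 1449944_a_at.

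Sec62 1433704_s_at had 10295, 9958 and 10627 in null pools, against 10676, 11508, 11274 and 11860.3 in B6 and 11086 and 11368 in 129/Sv pools. The null pools were the lowest 3, by a log2 fold change of -0.14 against B6 that was not called (adjusted p = 0.45). Sec63 had 8395 ± 766 in Cyp2g1-null, 7804 ± 353 in B6 and 8642 ± 490.0 in 129/Sv pools for 1419819_s_at, with the groups overlapping.

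Of the translocon-associated complex beyond Ssr1, Ssr3 had 28652, 30038 and 33287 in null pools, against 29696, 36239.9, 38708 and 38323 in B6 and 35041 and 38912 in 129/Sv pools. It was the other member to pass unadjusted against both strains, with adjusted p of 0.338 and 0.372. Null pools 2 and 3 were above B6 pool 1 and below all other wild-type pools. Ssr2 averaged 6248 ± 389 in Cyp2g1-null, 7512 ± 1638 in B6 and 5733 ± 1258 in 129/Sv pools, and Ssr4 33984 ± 2439 in Cyp2g1-null, 33870.0 ± 3238 in B6 and 35963 ± 436 in 129/Sv pools for 1448524_s_at. A dimmer Ssr4 probe set, 1435709_at, had 1268 to 1561 in Cyp2g1-null, 1755 to 2526 in B6 and 1162 to 1755 in 129/Sv pools (null minus B6 -0.62, adjusted p = 0.0717).

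Signal peptidase was the role with the least spread, with a median residual SD of 0.066 on the log2 scale against 0.207 over all probe sets tested. Its subunits Spcs1, Spcs2 and Spcs3 gave 5 tested probe sets, all with 95% intervals within 1.5-fold in every comparison. Spcs1 1448258_a_at averaged 37414 ± 2614 in Cyp2g1-null, 40459 ± 708 in B6 and 38865 ± 329 in 129/Sv pools, Spcs2 1450907_at 23434 ± 476 in Cyp2g1-null, 25717 ± 863 in B6 and 24062 ± 2570.0 in 129/Sv pools and Spcs3 23079 ± 714 in Cyp2g1-null, 24398 ± 2508 in B6 and 24008 ± 2457 in 129/Sv pools.

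Among the chaperones, null and B6 pools overlapped for nearly all members apart from Hyou1. Hspa5, the Hsp70 of the ER that holds the stress sensors inactive, had 29206, 27576 and 29543 in null pools, against 24818, 42511, 38922 and 41002 in B6 and 25509 and 33052 in 129/Sv pools (1416064_a_at). B6 pools 2, 3 and 4 were above all other arrays and B6 pool 1 was the lowest of all 9. The log2 fold change of null minus B6 was -0.32 (adjusted p = 0.363), and without B6 pool 1 it was -0.50 (adjusted p = 0.00872). No other single array left out gave a call, and the larger difference follows from removing the lowest pool. The second Hspa5 probe set, 1427464_s_at, had 21709, 19193 and 21431 in null, 18349, 32387, 22383 and 22965 in B6 and 16286 and 20548 in 129/Sv pools. It was not called against B6 with or without B6 pool 1.

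Hsp90b1, the Hsp90 of the ER, had 11969.9, 10854 and 11717 in null pools, against 9966, 14019.6, 10720.2 and 10606 in B6 and 9717 and 12412 in 129/Sv pools, with a log2 fold change of 0.04 against B6 (adjusted p = 0.93). Calr and Canx, the soluble and the membrane-bound lectin chaperone that bind glycoproteins, averaged 43082 ± 1787 in Cyp2g1-null, 42387 ± 5148 in B6 and 40911 ± 1871 in 129/Sv pools and 26270.0 ± 3500.0 in Cyp2g1-null, 27407 ± 2416 in B6 and 29133 ± 2047 in 129/Sv pools. The null minus B6 differences of the 6 Calr and Canx probe sets were between -0.07 and 0.28. Creld2 and Manf are small proteins that leave the ER under stress, and Sdf2l1 works with the Hsp70 cycle. Creld2 had 7856, 7851 and 8993 in null pools, against 6612, 12368, 8208 and 9870.0 in B6 and 6579 and 8874 in 129/Sv pools. Manf had 21188, 21339.9 and 20996 in null, 16257, 30143, 20166 and 24591 in B6 and 18905 and 23449.7 in 129/Sv pools. Sdf2l1 had 3425, 2994 and 3347 in null, 2595, 5154, 2882 and 3289 in B6 and 3126 and 3522 in 129/Sv pools. For all 3 genes the null pools lay inside the range of the B6 pools, which were spread the widest.

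The Hsp40 cofactors Dnajb9, Dnajb11 and Dnajc3 deliver clients to Hspa5. Dnajb9 had 8124 to 10395 in Cyp2g1-null, 6874 to 12166 in B6 and 9141 to 9317 in 129/Sv pools, and Dnajb11 3426 to 4278 in Cyp2g1-null, 3719 to 5597 in B6 and 3999 to 5177 in 129/Sv pools. Of 5 Dnajc3 probe sets, 1449372_at had 10867, 9751 and 9503 in null pools, against 9254, 15221, 14844 and 15932 in B6 and 10953 and 9625 in 129/Sv pools (null minus B6 -0.43, adjusted p = 0.206). Another, 1419163_s_at, was higher in B6 than in 129/Sv (log2 fold change 0.61, SE 0.15, adjusted p = 0.0256), with 7119, 5821 and 5665 in null, 5657, 7732, 6884 and 7355 in B6 and 3964 and 5071 in 129/Sv pools. Without 129/Sv pool 1 this difference was 0.435 (adjusted p = 0.301), and the call was also lost without B6 pool 2, 3 or 4 (0.056 to 0.0623), with the replicate block (0.0683) and with eBayes without trend (0.0954). The brightest Dnajc3 probe set, 1433887_at, had 12936 to 14573 in Cyp2g1-null, 10895 to 15426 in B6 and 12045 to 15363 in 129/Sv pools and overlapped between all groups.

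**Figure D3:**
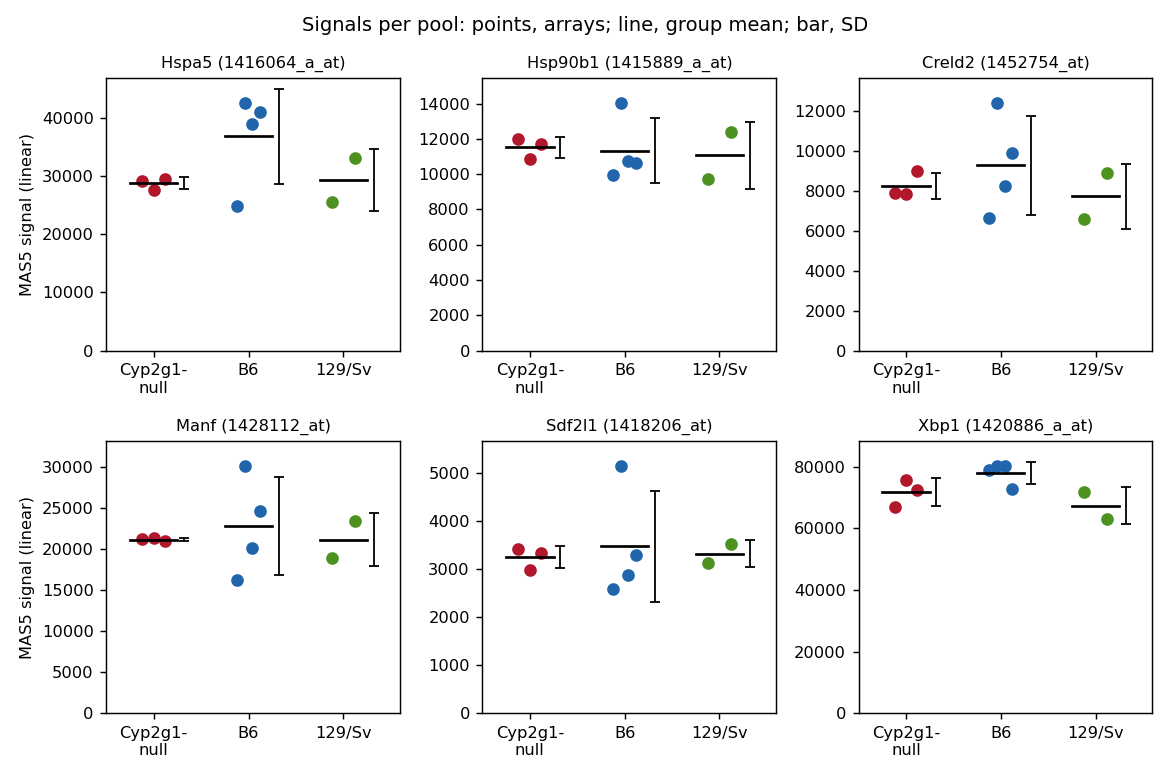
MAS5 signals (linear axis from 0) of Hspa5, Hsp90b1, Creld2, Manf, Sdf2l1 and Xbp1 in 3 Cyp2g1-null, 4 B6 and 2 129/Sv pools. Points are arrays, lines are group means and bars are SD. For the first 5 genes the B6 pools span the widest range and the null pools lie close together; for Xbp1 all groups lie between 63119 and 80308.

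Disulfide formation gave no calls apart from Agr2 and Pdia6. Pdia3, the isomerase that works with Calr and Canx, averaged 15764 ± 531 in Cyp2g1-null, 15997 ± 2462 in B6 and 14862 ± 395 in 129/Sv pools, with a log2 fold change of -0.01 against B6. Ero1a, the oxidase that recharges the isomerases, had 2250.0 ± 180.4 in Cyp2g1-null, 2450.0 ± 588 in B6 and 1996 ± 238 in 129/Sv pools for 1449324_at. Pdia4 had 452 to 619 in Cyp2g1-null, 539 to 622 in B6 and 602 to 691 in 129/Sv pools for 1416497_at, and Pdia5 1469 to 1739 in Cyp2g1-null, 1054 to 1578 in B6 and 1208 to 1290.3 in 129/Sv pools. No probe set of these genes was called in any comparison.

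The degradation branch gave no calls. Herpud1, a stress-induced organiser of the retrotranslocation complex, had 30886 ± 3055 in Cyp2g1-null, 34913 ± 5156 in B6 and 35474 ± 2863 in 129/Sv pools for 1448185_at. Sel1l is the partner of the ubiquitin ligase Hrd1. Its brightest probe set, 1425187_at, averaged 12250 ± 638 in Cyp2g1-null, 14407 ± 1373 in B6 and 12188 ± 1007 in 129/Sv pools. The log2 fold change of null minus B6 was -0.23 there (adjusted p = 0.266). Sel1l 1425188_s_at averaged 12316 ± 889.8 in Cyp2g1-null, 13479 ± 1381 in B6 and 12326 ± 121 in 129/Sv pools. Derl1 and Derl3, membrane proteins of the exit route, had 10345 ± 413 in Cyp2g1-null, 10743 ± 1178 in B6 and 10144 ± 33.4 in 129/Sv pools (Derl1 1437723_s_at) and 11700.0 ± 984 in Cyp2g1-null, 13222 ± 701 in B6 and 13649 ± 1166 in 129/Sv pools (Derl3). Edem1, which trims mannose from glycoproteins marked for disposal, had 6516 to 7285 in Cyp2g1-null, 6314 to 6852 in B6 and 4888 to 6030.4 in 129/Sv pools for 1424065_at. All 13 probe sets of this role had a 95% interval within 1.5-fold for null minus B6, the log2 fold changes ran from -0.23 to 0.12, and 0 were called in any comparison.

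Xbp1, the factor whose mRNA is spliced by Ire1 under stress, had 66872, 75842 and 72514 in null pools, against 79104, 80308, 80203 and 72694 in B6 and 71706 and 63119 in 129/Sv pools (1420886_a_at). Its 4 probe sets differed by -0.15 to -0.05 between null and B6 and none was called. On 1437223_s_at the null pools had 66170 to 67778, below the B6 pools (71646 to 76780) and the 129/Sv pools (67953 to 68209). Whether a probe set reads the spliced or the unspliced form was not examined.

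KDEL receptors return ER residents from the Golgi. Kdelr1 had 13694 ± 1296 in Cyp2g1-null, 14141 ± 1028 in B6 and 13654 ± 1323 in 129/Sv pools. Kdelr2 was lower in B6 than in 129/Sv on 1417205_at (log2 fold change -0.77, SE 0.17, adjusted p = 0.0161), with 3124, 3949 and 3762 in null, 2302, 3560.0, 2355 and 3106 in B6 and 4689 and 4828 in 129/Sv pools. Null pools overlapped with B6 and stood below both 129/Sv pools. This call was lost without either 129/Sv pool (adjusted p = 0.109 and 0.132) and with eBayes without trend (0.0665). On its brighter probe set 1417204_at the strain difference was -0.34 and was not called (adjusted p = 0.137). Kdelr3, whose promoter window holds the unfolded protein response element, was higher in B6 than in 129/Sv (log2 fold change 0.43, SE 0.11, adjusted p = 0.042). It had 9262, 7726 and 8583 in null, 8865, 10324, 8109 and 8679 in B6 and 6747 and 6523 in 129/Sv pools, so the null pools overlapped with B6 and not with 129/Sv. Kdelr3 lost its call without 129/Sv pool 1 (adjusted p = 0.169), 129/Sv pool 2 (0.252), B6 pool 2 or 4 or null pool 1 or 3 (0.0507 to 0.0827). It was also lost with the replicate block (0.068), no filter, equal array medians, a fit of only the groups compared and eBayes without trend (0.0532 to 0.125).

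The p24 proteins of the Tmed family carry cargo between the ER and the Golgi. Tmed4 was higher in B6 than in 129/Sv (log2 fold change 0.46, SE 0.10, adjusted p = 0.0174), with 10109, 11309 and 10841 in null, 10760.2, 13304, 12394 and 11402 in B6 and 8387 and 8903 in 129/Sv pools. Null and B6 pools overlapped and both stood above 129/Sv. Tmed4 was not called without 129/Sv pool 1 (adjusted p = 0.158), without 129/Sv pool 2 (0.0786) or with eBayes without trend (0.0788). Tmed9 1448268_at had 5328, 5888 and 5519 in null pools, against 5237, 9911, 9254 and 12798 in B6 and 7822 and 7793 in 129/Sv pools. B6 pool 1 was the lowest of all 9 arrays there and the other B6 pools were the highest 3. The log2 fold change of null minus B6 was -0.67 (adjusted p = 0.137), or -0.92 without B6 pool 1 (adjusted p = 0.000623). No other single array left out gave this call, and the larger difference follows from removing the lowest pool. The other Tmed9 probe set, 1439448_x_at, had 6818 to 7208 in Cyp2g1-null, 5209.5 to 9676 in B6 and 5494 to 10369 in 129/Sv pools and a difference of 0.00.

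Tmed10 averaged 8594 ± 259 in Cyp2g1-null, 8596 ± 336 in B6 and 8893 ± 1167 in 129/Sv pools. Tmed3 averaged 25086 ± 92.2 in Cyp2g1-null, 24074 ± 4372 in B6 and 23650.0 ± 1967 in 129/Sv pools. Tmed5 1424574_at averaged 3228 ± 179.5 in Cyp2g1-null, 3060.0 ± 1038 in B6 and 2404 ± 9.05 in 129/Sv pools. Tmed7 averaged 8728 ± 878 in Cyp2g1-null, 8184 ± 800 in B6 and 8663 ± 467 in 129/Sv pools for its brightest probe set, 1427314_at. Tmed7 1419917_s_at averaged 8453 ± 1263 in Cyp2g1-null, 8356 ± 966 in B6 and 7868 ± 473 in 129/Sv pools. None of these genes had a called probe set. Tmed6, Tmed8 and Tmed11 had signals of 272.7 or less on every array and were not tested.

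Pools of the same B6 strain also differed across the module, a contrast that was chosen after the values were seen and carries no test. B6 pool 2 was above B6 pool 1 for 85 of the 100 members, by a median of 0.36 on the log2 scale, against 47.2% of all probe sets and a median of -0.02. All 23 chaperone and cofactor probe sets, which read 11 genes, were higher in pool 2 (median 0.66). So were all 21 probe sets of the 10 genes with either ER stress response element, including Hspa5, Calr and Hsp90b1 whose stretches are printed above (median 0.49). The sets overlap, since of these 10 genes all but Pdia6, Derl3 and Herpud1 are also among the chaperones and cofactors. Sdf2l1 and Manf are not among the 10 genes. Sdf2l1 was 1.98-fold, Creld2 1.87-fold, Manf 1.85-fold and Hspa5 1416064_a_at 1.71-fold higher in pool 2. B6 pools 3 and 4 lay between, with 20 and 21 of the 23 chaperone probe sets above pool 1 (medians 0.31 and 0.37), beside 50.1% and 48.5% of all probe sets.

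Roles differed in how far they took part. B6 pool 2 was above pool 1 in 13 of 13 degradation, 9 of 10 p24, 12 of 16 channel, 6 of 8 translocon-associated, 7 of 9 disulfide, 5 of 5 signal peptidase, 4 of 4 KDEL receptor and 5 of 8 signal recognition particle probe sets. Their median differences were 0.33, 0.45, 0.24, 0.49, 0.46, 0.1, 0.29 and 0.04 on the log2 scale. Xbp1 did not follow, with 1 of 4 probe sets higher in pool 2 and a median of -0.07. The pair of 129/Sv pools also differed, with 21 of 23 chaperone probe sets higher in pool 2 than in pool 1 (median 0.31). For this pair 72 of the 100 members were higher in pool 2, beside 47.6% of all probe sets (median -0.02). Null pools differed less, with chaperone medians between -0.07 and 0.01 over their 3 pairs.

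The same B6 pools differed in olfactory neuron markers, in the opposite direction. All 5 tested probe sets of that list were lower in B6 pool 2 than in pool 1 (median -2.22), and Omp, the olfactory marker protein, had 3323, 703, 1159 and 1514 in the 4 B6 pools (1422200_at). Summed signals of all 15 probe sets on that list were 3326 in pool 2 and 14255 in pool 1. Duct and basal cell markers were lower in pool 2 in 5 of 5 probe sets (median -0.59), whereas gland secretory markers were higher in 11 of 13 (median 0.05). Stroma and endothelium markers were higher in pool 2 in 2 of 10 (median -0.26), ciliated cell markers in 3 of 7 (median -0.3) and goblet and mucous cell markers in 2 of 4 (median -0.22). Plasma and B cell markers had a median of -0.05, macrophage and neutrophil markers -0.06, and the 1 tested cartilage probe set had a difference of -0.25. Their part in the chaperone difference was not tested.

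**Figure D4:**
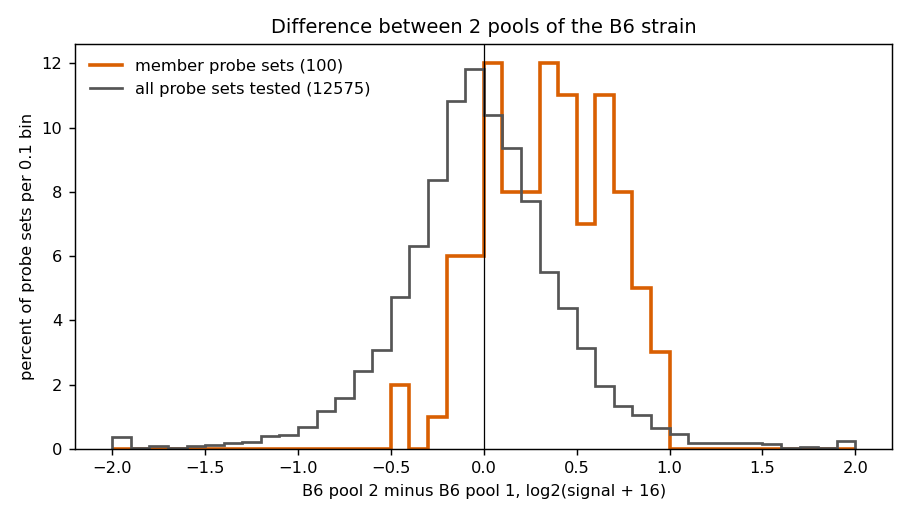
Distribution of the difference between B6 pool 2 and B6 pool 1 in log2(signal + 16), as percent of probe sets per bin of 0.1, for the 100 members and all 12575 probe sets tested. Differences past 2 are in the outermost bins. The members lie to the right of 0 in 85 of 100 cases, against 47.2% of all probe sets.

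**Figure D5:**
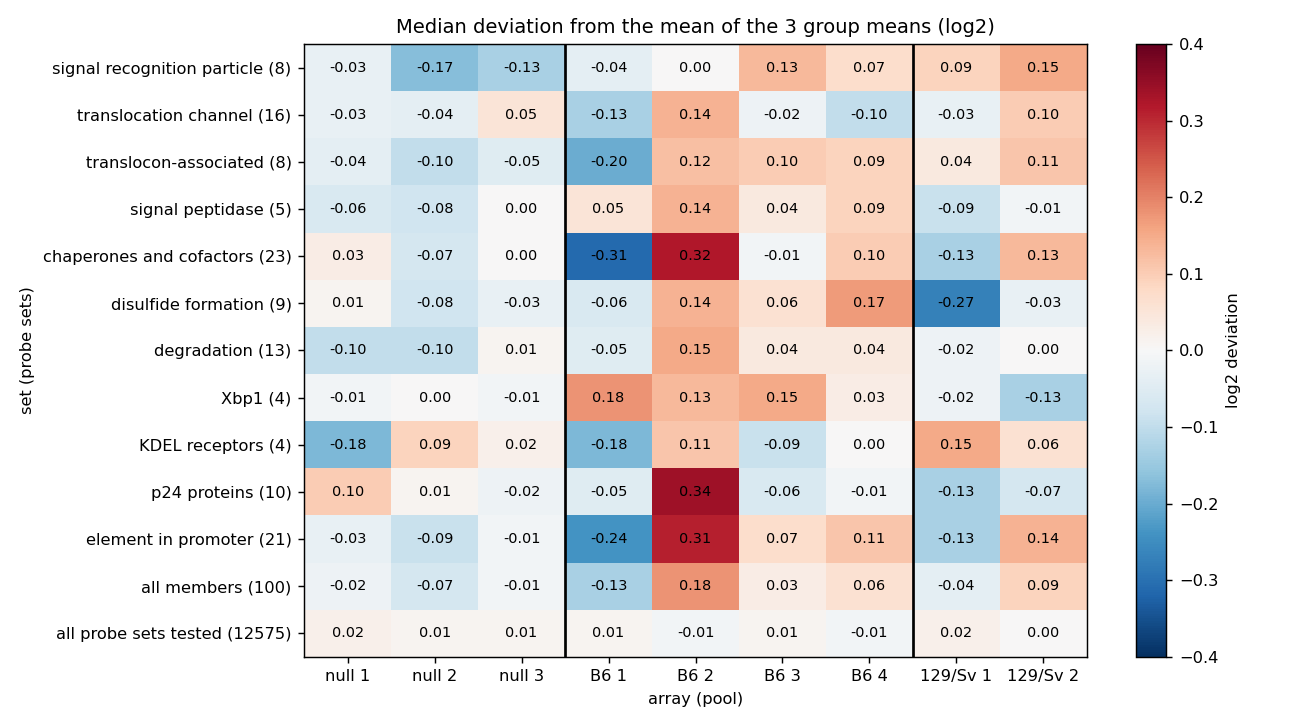
Median deviation of each role (rows) on each array (columns) from the mean of the 3 group means, in log2 units, with the number of probe sets in parentheses. Chaperones read -0.31 in B6 pool 1 and 0.32 in B6 pool 2, while the null pools read between -0.07 and 0.03, and all probe sets tested stay between -0.01 and 0.02.

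Genes of neighbouring pathways that are not members were called mostly in 1 direction in each comparison, with no test of the lists. Between null and B6 pools, 0 were higher and 6 lower (3.49%) among 172 tested probe sets of 6 lists, beside 1.11% and 1.07% of all probe sets. By list this was 1 of 25 for oligosaccharyl transferase and N-glycan processing, 1 of 30 for other folding enzymes, 1 of 26 for ER-associated degradation, 1 of 25 for unfolded protein response sensors and effectors, 2 of 51 for COPII and COPI transport and 0 of 15 for other translocation parts. Between null and 129/Sv pools, the same lists in that order had 0, 1, 2, 0, 3 and 0 probe sets higher (3.49% in all, beside 1.41% of all probe sets) and 0 lower. Between B6 and 129/Sv pools they had 1, 3, 3, 1, 6 and 0 higher in B6 (14 in all, 8.14%, beside 2.92% of all probe sets) and 1 lower (0.58%, beside 2.27%). The medians for null minus B6 were -0.05, 0, -0.13, -0.14, -0.06 and -0.11. In B6 pool 2 minus pool 1 they were 0.37, 0.06, 0.32, 0.12, 0.39 and 0.11, with 23, 22, 22, 17, 42 and 12 probe sets higher in pool 2.

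Ero1b, the second oxidase of the disulfide isomerases, had 2115, 2934 and 2484 in null pools, against 4798, 5726, 5249 and 5452 in B6 and 1982 and 2425 in 129/Sv pools (1434714_at, log2 fold change -1.08, SE 0.13, adjusted p = 0.00033 against B6). A dimmer Ero1b probe set, 1425705_a_at, was not called between null and B6 (-0.88, adjusted p = 0.117). It had 735 to 1445 in null, 1501 to 2030 in B6 and 317 to 689.5 in 129/Sv pools, so its null pools lay between the strains. Nucb2, a calcium-binding protein of the secretory pathway on the list of response effectors, had 13934, 14421 and 13680.0 in null, 21461, 24391, 23631 and 22976 in B6 and 14156 and 16223 in 129/Sv pools (log2 fold change -0.72, SE 0.08, adjusted p = 0.000243 against B6; against the mean of both strains -0.42, adjusted p = 0.0175). Arcn1, the delta subunit of the COPI coat, had 2925, 3792 and 4037 in null, 5284, 12286, 7819.5 and 7397 in B6 and 3311 and 3667 in 129/Sv pools (log2 fold change -1.14, SE 0.21, adjusted p = 0.01 against B6). In all 3 genes every null pool was below every B6 pool, and B6 was also higher than 129/Sv (log2 fold change 1.27 for Ero1b, 0.61 for Nucb2 and 1.16 for Arcn1, adjusted p = 8.10e-05, 0.00104 and 0.00969). Ube2j1, a ubiquitin-conjugating enzyme of ER-associated degradation, Stt3b 1426343_at, a catalytic subunit of oligosaccharyl transferase, and Ergic1 were also lower in null than in B6. Their differences were -0.63 for Ube2j1 (adjusted p = 0.0155), -0.46 for Stt3b (0.0363) and -0.46 for Ergic1 (0.0266) on the log2 scale. B6 was higher than 129/Sv in Ube2j1 (0.57, adjusted p = 0.03) and Ergic1 (0.53, 0.0125), and this Stt3b probe set was not called between the strains (0.35, 0.13). The brighter Stt3b probe set 1426342_at was called higher in B6 than in 129/Sv (0.46, adjusted p = 0.00968). It was not called between null and B6 (-0.28, 0.111). Against 129/Sv, the null pools were higher in Erp29, a lumenal isomerase relative (log2 fold change 0.90, SE 0.15, adjusted p = 0.00455), in Edem2 (0.51, adjusted p = 0.0443), in Ubxn4 (0.65, 0.0317) and in Sec23b, a COPII coat subunit (0.86, 0.0425). They were also higher in Lman1, a cargo receptor (0.75 on 1428129_at and 0.67 on 1452671_s_at, adjusted p = 0.0102 for each). B6 was called higher than 129/Sv in all of these too, with log2 fold changes of 0.90 for Erp29 (adjusted p = 0.00166), 0.64 for Edem2 (0.00382), 0.69 for Ubxn4 (0.00763), 1.00 for Sec23b (0.00563) and 0.60 and 0.47 for Lman1 (0.0147 and 0.0311). Null pools overlapped with B6 in each of them, with log2 fold changes of null minus B6 between -0.14 and 0.20, and 129/Sv pools were below both. A further Lman1 probe set, 1428130_at, was called higher in B6 than in 129/Sv (0.71, adjusted p = 0.016). It was not called between null and 129/Sv (0.44, 0.265) or between null and B6 (-0.27, 0.397).

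Positions of the called genes were looked up after their values were seen, and carry no test. Agr2 and Pdia6 are both on chromosome 12, with 101 protein-coding genes between them in the RefSeq table. Hyou1 and Arcn1 are on chromosome 9 with 11 protein-coding genes between them, and in both the null pools overlapped with 129/Sv and not with B6. Stt3b is also on chromosome 9, with 698 protein-coding genes between it and Hyou1. Ssr1 and Ero1b are on chromosome 13, with 255 between them. Members that were not called lie on the same chromosomes, among them Sel1l, Dnajb9 and Tmed10 on 12, Manf and Tmed3 on 9 and Tmed9 on 13. Which strain's chromosome segment the null line carries at these places was not examined.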

How the data were processed

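Per the submitters' processing notes the authors computed the deposited values, signal intensities on a linear scale, in MAS5, of which no version is given. Per the labels, each of 9 arrays took RNA of 1 pool of 10 mice. Mean signals after trimming 2% at each end were 1500.6 on every array, and medians 518.6 to 550. Without detection calls, signals could not be split into present and absent, and precision is limited by the number of arrays.

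The 64 control probe sets were left out. Signals were taken as log2(signal + 16), unnormalized further, which understates the change of dim genes, and kept where above the array median on 2 or more arrays. Group means were fitted over 12575 probe sets with limma 3.58.1 in R 4.3.3 (lmFit, eBayes with trend). Adjusted p-values are two-sided, by Benjamini-Hochberg over these probe sets, and called at 0.05 or less. All 3 groups shared an estimate of the variance, and p-values measure the spread between pools. No pair of arrays held identical values (correlations 0.925 to 0.942). The fit was tested on simulated data. Promoter sequences came from RefSeq; 11 symbols without a window were not searched.

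Named were every called member, the brightest probe set of each symbol and up to 4 called genes of each pathway list. Further probe sets of these genes were named outside this rule. The members, lists and tests were chosen with earlier results of these data known. No batch was given, so none was tested. The alternatives covered normalization, pseudocount, filter, probe set choice, variance prior, array weights, replicate block, threshold and single arrays left out.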

Additional observations from a re-analysis of the deposited data

Results flagged for a closer look

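Among the 55 named member probe sets, 7 had a B6 pool that stood apart from the other 3 by a gap larger than Dixon's critical share of the group's range on the log2 scale. Chance flags about 1 in 20 groups. In 5 of the 7 it was B6 pool 1 with the lowest signal of its strain. This pool had 34738.1 for Calr 1417606_a_at, against 44077 to 45809 in the other B6 pools, and 24818.3 for Hspa5 1416064_a_at, against 38922 to 42511. It had 4279.7 for Agr2 1419268_at (others 5623 to 5894), 12615.6 for Kdelr1 (others 14431 to 14767) and 5664 for Srp68 (others 7808 to 8305). The same pool had the highest signal for Ssr4 1448524_s_at, 38677.9 against 31631 to 32697. For Xbp1 1420886_a_at it was B6 pool 4 that stood apart, at 72693.8 against 79104 to 80308. B6 pool 1 also had the highest olfactory marker sum, 14255, and the part of that difference in these signals was not tested.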

How the results depend on the processing

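Under the 14 alternatives other than leaving out arrays, most counts of called members stayed within 1.5 times the reported ones. The exceptions follow, and their cause was not tested. For null against B6 (4 reported), array weights gave 10 and a threshold of 0.10 gave 7. For null against 129/Sv (0 reported), a fit of only the groups compared gave 2, Ssr1 1417764_at and Tmed9 1448268_at. For null against the mean of both strains (2 reported), quantile normalization gave 1, and no filter, eBayes without trend and a threshold of 0.01 gave 0 each. For B6 against 129/Sv (9 reported), 1 probe set a gene gave 5 of 48 tested, and eBayes without trend and a threshold of 0.01 gave 3 each. Over all probe sets tested, array weights gave 490, 363 and 291 calls for null against B6, 129/Sv and the mean, where 274, 256 and 154 were reported, and eBayes without trend gave 154, 166 and 59. Calls against each strain in the same direction stayed at 0 members under every alternative run. No fold change of a called member changed sign in the alternatives run, while the median over the members changed sign in each of the 4 comparisons when single arrays were left out, as given with those medians. Of the strain calls, Ssr1 1417764_at alone held in every alternative run.

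Leaving out each array in turn gave 3 to 11 calls for null against B6, 0 to 1 against 129/Sv, 0 to 4 against the mean, 2 to 12 for B6 against 129/Sv and 0 to 0 for both strains. The 11, the 4 and the 12 came without B6 pool 1, where Hspa5 1416064_a_at, Tmed9 1448268_at, Dnajc3 1449372_at, Srp19, both Srp9 probe sets and Hyou1 1423291_s_at were added against B6. The 1 against 129/Sv, Ssr1 1417764_at, also came without B6 pool 1. Against the mean, 0 were called without any 1 of the 3 null pools, B6 pools 2, 3 and 4 or 129/Sv pool 2, and 1 without 129/Sv pool 1. Between the strains, 2 were called without 129/Sv pool 1 and 4 without 129/Sv pool 2, where the lone array was assumed to vary like the other groups.

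The labels number the replicates alike. Over all probe sets tested, deviations of same-numbered pools correlated between -0.075 and 0.096. Such correlations cannot show whether same-numbered pools shared something limited to some genes. Of the 23 chaperone probe sets, pool 2 was above pool 1 in 23 in B6, 21 in 129/Sv and 8 in Cyp2g1-null. Whether the shared number played a part in this was not tested. With the replicate number as a replicate block, 5 members were called for null against B6, 0 against 129/Sv, 2 against the mean, 7 between the strains and 0 against both strains. A fit of only the groups compared was not run for the mean of both strains, which takes all groups.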
